A study of Mus musculus with 48 samples.

Results

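The genes described here are 9 members of the RGS family, the regulators of G protein signaling: Rgs2, Rgs3, Rgs4, Rgs5, Rgs10, Rgs12, Rgs16, Rgs17 and Rgs19. They were taken by name from count tables of 47480 gene symbols that held all 9, and were chosen with earlier results of these data known. The data are RNA-seq libraries of C2C12 cells, an established mouse myoblast line that fuses into myotubes in low serum. Cells were either kept as myoblasts or first differentiated (the libraries labelled myotubes), and then either stretched for 1, 3 or 6 h in a cyclic, equibiaxial way on flexible collagen-coated plates or kept on the same plates without stretch for the same time. Each of the 12 groups held 4 libraries. No group carried a transgene, a knockout or a drug. The groups were set by stage, stretch and time, and the stages also differed in experiment and, per the study's methods, in serum and plating density.

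Total counts ran from 48447318 to 77080730 per library. Codes in the sample titles, used here as the experiment, split every myoblast group into libraries of B27 (replicates 7 and 8) and B31 (replicates 9 and 10), and the differentiated groups into B25 (7 and 8) and B28 (9 and 10). The exception was the 1 h stretched differentiated group, which had 1 library of B28 (replicate 9) and replicate 4 of a further code, B17, that had no non-stretched partner. The title of the 1 h stretched myoblast replicate 9 has B231 where its column has B31, and it was taken as B31. Replicates are separate samples that partly share an experiment, so p-values measure the spread between these samples, which may be technical in part. The 7 muscle differentiation genes Myog, Myh1, Myh3, Mef2c, Tnnt1, Ckm and Acta1 summed to 8.40 to 18.9 CPM (counts scaled to library size) in myoblast libraries and to 11085 to 13641 CPM in differentiated ones. The 7 markers of endothelial, smooth muscle, blood and fat cells summed to at most 2.25 CPM in any library. Ctgf and Cyr61, genes known to answer to mechanical force, were called higher after 1 h of stretch in myoblasts (log2 fold changes 0.65 and 0.81), and in differentiated cells Cyr61 was called after 1 h (1.83) and Ctgf after 3 h (1.01). The 1 h value of Ctgf there was larger, 2.10 with an edgeR adjusted p of 0.10, and DESeq2 called both genes at 1 h. In that stretched group the B17 library was far above the rest, at 983 CPM of Ctgf and 1083 CPM of Cyr61 against group medians of 253 and 450 CPM.

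RGS proteins act on heterotrimeric G proteins. A G protein-coupled receptor loads the alpha subunit with GTP, which frees it from the beta and gamma subunits, and the RGS domain speeds GTP hydrolysis on the alpha subunit and so shortens the signal. Rgs2, Rgs3, Rgs4, Rgs5 and Rgs16 belong to the R4 subfamily, mostly small proteins whose mRNAs are often under fast transcriptional control. Rgs2 acts mainly on Gq alpha subunits, and Rgs4, Rgs5 and Rgs16 act on both Gi and Gq. Rgs10 and Rgs12 belong to the R12 subfamily and act on Gi alpha subunits, Rgs12 as a large scaffold with further domains. Rgs17 and Rgs19 belong to the RZ subfamily. Rgs5 is best known from the smooth muscle-like cells around blood vessels.

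On mm10 with the GENCODE vM21 annotation, 4 of the 9 genes lie on chromosome 1, where 11 RGS genes are annotated in all. Rgs2 is at chr1:143999338-144004161 on the minus strand and Rgs16 at chr1:153740349-153745468 on the plus strand. Rgs5 (chr1:169655501-169695813, plus strand) and Rgs4 (chr1:169741477-169747642, minus strand) are neighbours, 45.66 kb apart. Rgs3 is at chr4:62559847-62704001, Rgs12 at chr5:34949445-35039644, Rgs10 at chr7:128373621-128418758, Rgs17 at chr10:5825663-5922400 and Rgs19 at chr2:181688419-181693977. All are protein-coding genes counted over their exons. Of the 31-base stretches of Rgs3 exons, 12.5% occur in other genes too, so a part of its counts is uncertain, while no other member passed 0.451%. Exons of Rgs16 and Rgs12 overlap the predicted genes Gm28513 and Gm43791 on the other strand, which had at most 4 and 10 counts in any library.

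Rgs2 and Rgs16 gave the widest stretch differences among the members with enough counts, so the 250 bases before their RefSeq start sites (GRCm38.p6, each written 5′ to 3′ on the gene's own strand) are shown. Capitals mark TGACG on either strand, the core of the cyclic AMP response element (CRE).

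Rgs2, chr1:144004150-144004399, minus strand: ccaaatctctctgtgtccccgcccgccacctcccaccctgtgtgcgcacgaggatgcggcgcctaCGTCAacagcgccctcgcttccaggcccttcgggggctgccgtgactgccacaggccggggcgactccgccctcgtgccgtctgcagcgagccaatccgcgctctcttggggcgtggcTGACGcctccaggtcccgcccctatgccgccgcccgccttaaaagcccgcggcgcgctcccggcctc

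Rgs16, chr1:153740103-153740352, plus strand: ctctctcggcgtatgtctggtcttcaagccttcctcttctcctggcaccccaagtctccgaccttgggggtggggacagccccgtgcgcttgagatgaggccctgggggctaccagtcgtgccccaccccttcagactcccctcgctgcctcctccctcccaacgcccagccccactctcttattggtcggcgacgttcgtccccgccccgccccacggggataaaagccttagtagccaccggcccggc

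The Rgs2 window held 2 CRE cores, at 185 and 67 bases before the start, and 72.4% of its bases were G or C. The Rgs16 window was 66.4% G or C and held none. The CRE core occurred in 17.8% of 32851 RefSeq promoter windows of this length. Both windows lacked the full CRE TGACGTCA, which contains the CRE core (1.55% of windows), the AP-1 motif TGANTCA (6.75%), the TEAD motif GGAATG (12.6%), the EGR motif GCGTGGGCG (0.536%) and the CArG box bound by SRF (1.47%), each searched on both strands. These are matches of letters and not measured binding. Among the other members, Rgs4 also had 2 CRE cores in its window. A window of Rgs12 had 1 CRE core and 1 AP-1 match, and that of Rgs17 had 1 AP-1 match.

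The levels without stretch give the ground on which the stretch comparisons stand. Between genes, levels were compared as CPM per kilobase of merged exons, over the 12 non-stretched libraries of a stage. In myoblasts Rgs19 stood highest at 12.5 ± 0.688 CPM per kb (SD, n = 12), followed by Rgs12 at 10.7 ± 0.399, and their ranges met, from 11.2 to 13.5 and from 10.1 to 11.4. Rgs16 followed at 4.68 ± 0.251, apart from its neighbours. Rgs10 at 2.83 ± 0.236 and Rgs3 at 2.47 ± 0.185 overlapped each other, and Rgs2 stood well under both at 0.353 ± 0.116. Rgs4 at 0.102 ± 0.0278 and Rgs17 at 0.0661 ± 0.0133 overlapped, and Rgs5 was last at 0.00544 ± 0.00385. Differentiated cells had the order Rgs12, Rgs19, Rgs3, Rgs16, Rgs10, Rgs2, Rgs4, Rgs17 and Rgs5, from 6.15 ± 0.363 CPM per kb for Rgs12 and 5.09 ± 0.369 for Rgs19 to 0.00428 ± 0.00429 for Rgs5. There the ranges of Rgs12 and Rgs19 overlapped, as did those of Rgs10 and Rgs2, of Rgs4 and Rgs17, and of Rgs17 and Rgs5.

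**Figure D1:**
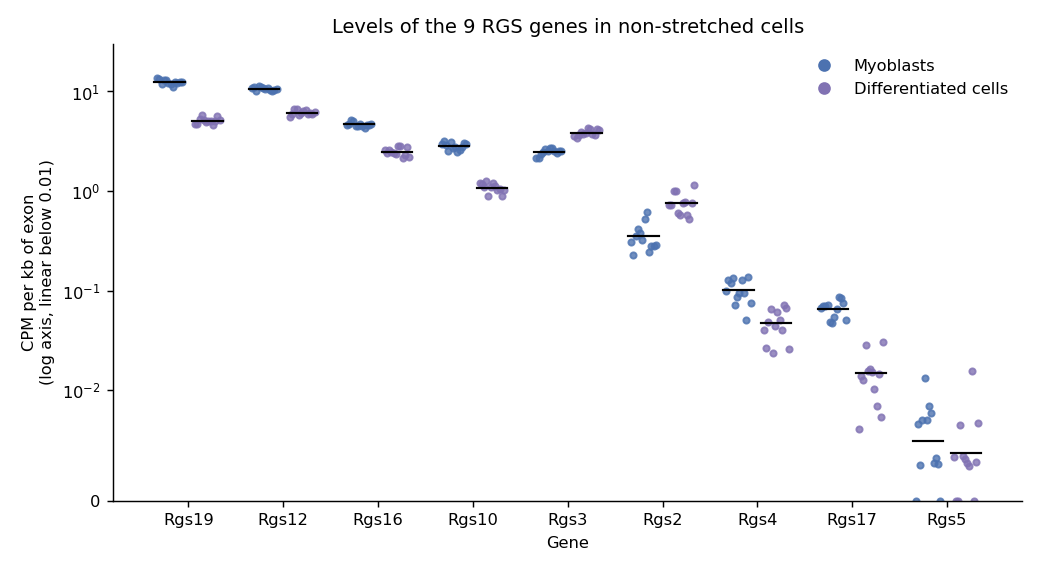
Levels of the 9 RGS genes in non-stretched cells, as CPM per kilobase of exon on a log axis that is linear below 0.01, with 1 point per library (12 per stage) and a line at the mean. Rgs2 and Rgs3 sit higher in differentiated cells, and the other members from Rgs19 to Rgs17 sit lower.

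Of the 9 members, 8 were tested between non-stretched stages and all 8 were called, at an adjusted p under 0.05 and an absolute log2 fold change of at least 0.58, in a comparison in which 50.5% of all genes tested were called. The 2 higher in differentiated cells (26.4% of all genes) were Rgs2, at 2.77 ± 0.706 against 1.28 ± 0.420 CPM (SD, n = 12 each), log2 fold change 1.11 ± 0.15 (SE), and Rgs3, at 41.8 ± 3.11 against 26.7 ± 1.997 CPM, log2 fold change 0.62 ± 0.03. The 6 lower ones (24.1% of all genes) spanned all 3 subfamilies. Rgs17 was lowest relative to myoblasts (log2 fold change -2.14), followed by Rgs10 (-1.41), Rgs19 (-1.32), Rgs4 (-1.12), Rgs16 (-0.94) and Rgs12 (-0.83). Rgs17 and Rgs4 averaged only 0.124 and 0.145 CPM in non-stretched differentiated cells. They passed the filter on low counts mainly through the myoblast libraries, where they were higher, which favours a call as lower. The edgeR adjusted p-values were from 1.39e-22 (Rgs19) to 3.6e-06 (Rgs4). The 2 stages came from different experiments, so stage and experiment cannot be told apart here, and in bulk RNA fewer expressing cells and less RNA per cell cannot be told apart either. Within 1 time point at a time, the Rgs2 difference was 0.55 at 3 h, under the fold limit, and that of Rgs4 was -0.86 at 6 h with an edgeR adjusted p of 0.053.

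Too few counts were present for some members. Rgs5 had 0 to 6 counts per library and passed the filter on low counts in no comparison. Of 24 libraries per stage, 4 myoblast and 9 differentiated ones had no Rgs5 count, which allows up to 3 counts, or 0.0434 to 0.0556 CPM, in such a library, and no fold change is given. Rgs4 and Rgs17 were tested for stretch in myoblasts, with 9 to 28 and 16 to 46 counts per library. In differentiated cells they had 4 to 19 and 0 to 16 counts and were not tested for stretch within a time point. The Rgs17 counts there at 3 h were 7, 8, 8 and 6 without stretch against 3, 0, 7 and 0 with it, in groups that overlapped.

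**Figure D2:**
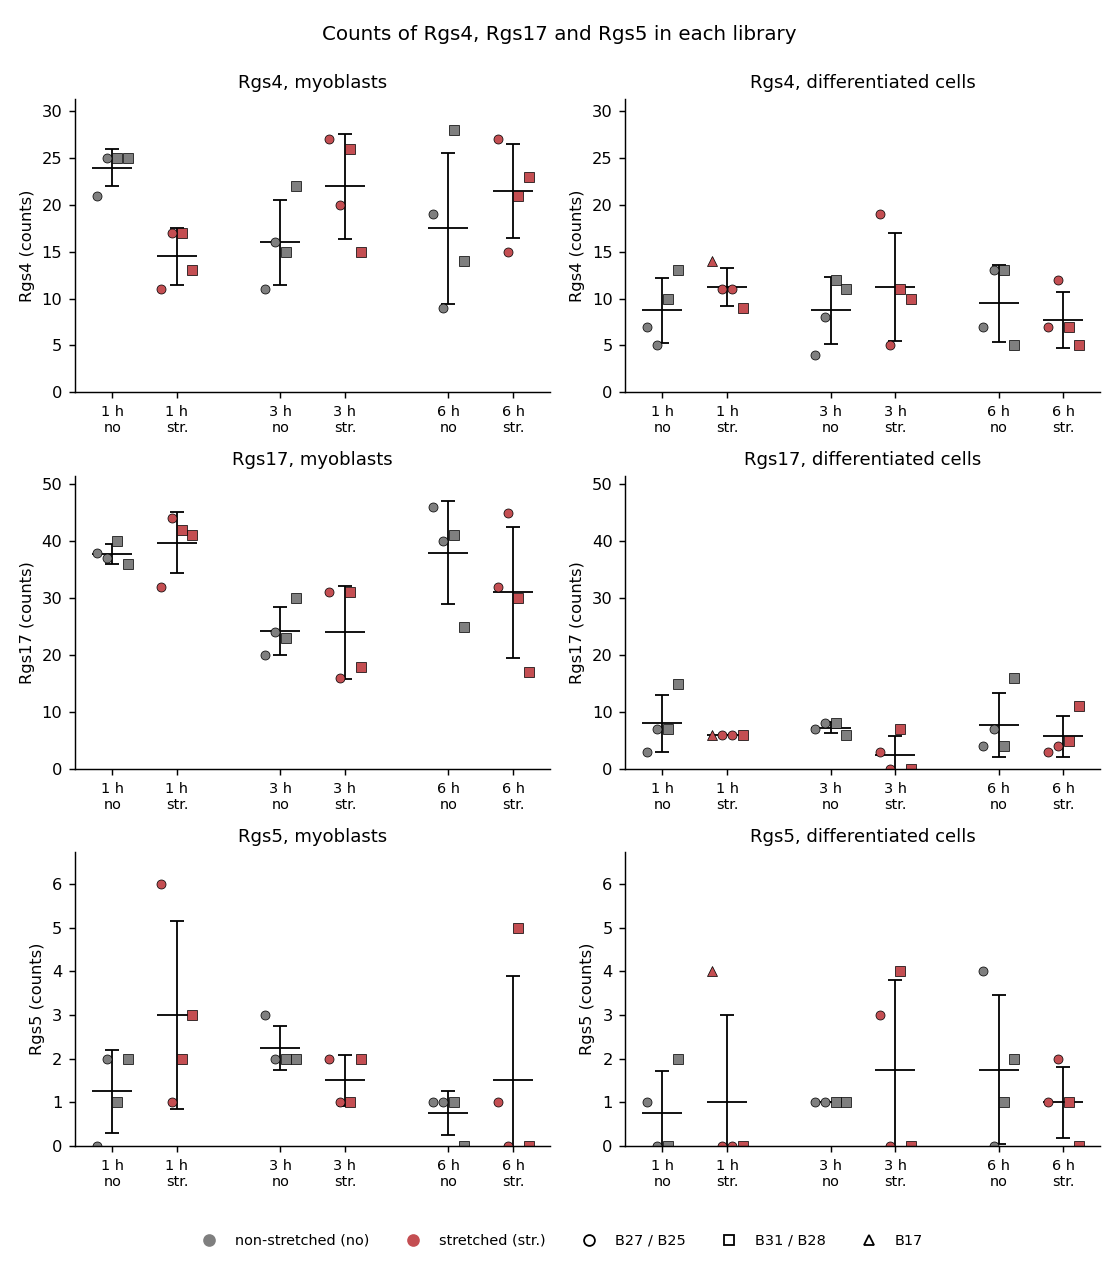
Counts per library of Rgs4, Rgs17 and Rgs5 (rows) in myoblasts and differentiated cells (columns), with the mean and SD of the 4 libraries of each group and point shapes for the experiment codes. Rgs5 stays at 6 counts or fewer in every library, and Rgs17 is at 16 or fewer in differentiated cells.

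The main comparison asked, for each stage and time, whether stretched cells differed from non-stretched cells of the same time. Across the 6 comparisons, 1 member was called at both limits in 1 of them, Rgs16 in myoblasts at 1 h, where 8 of the 9 members were tested and 1.25% of all genes were called (0.254% higher and 0.997% lower). At 3 h 0 of 8 members were called (background 1.71%) and at 6 h 0 of 8 (2.17%). In differentiated cells 0 of 6 members tested were called at 1 h (0.27%), 3 h (1.63%) and 6 h (2.04%). By adjusted p alone, without the fold limit, the myoblast counts were 1, 3 and 3 of 8 at 1, 3 and 6 h, against 5.92%, 31.9% and 27.2% of all genes, and the differentiated counts were 0, 1 and 1 of 6, against 0.663%, 22.2% and 22.3%. At an unadjusted p under 0.05 the edgeR counts were 2, 4 and 3 of 8 in myoblasts. There 2835 of 14938, 6140 of 14813 and 5814 of 14938 genes passed. In differentiated cells the counts were 2, 1 and 2 of 6, where 1386 of 15538, 5408 of 15513 and 5523 of 15433 genes passed. DESeq2 at both limits called 1, 1 and 0 members in myoblasts and 1, 0 and 0 in differentiated cells. The share of all genes that DESeq2 called is not given here, so these counts are not read as a result about the members. The median log2 fold change of the members tested lay between -0.07 and 0.14 in the 6 comparisons, next to medians within 0.01 of 0 over all genes tested. Counting groups whose libraries did not overlap gave 3, 2 and 4 of 8 members in myoblasts (13.3%, 30.8% and 28.7% of all genes) and 2, 1 and 1 of 6 in differentiated cells (6.37%, 25.9% and 26.4%).

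**Figure D3:**
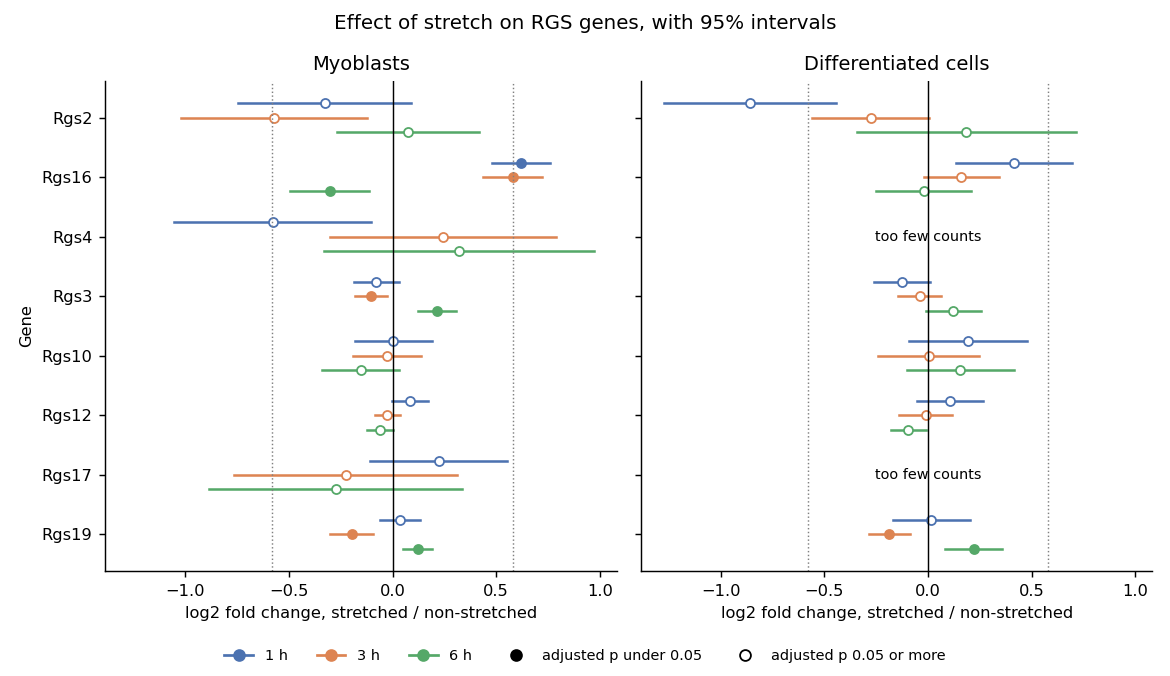
Log2 fold change of stretched against non-stretched cells for the 8 members tested, by stage and time, with 95% intervals, filled points where the edgeR adjusted p is under 0.05, and dotted lines at the fold limit of 0.58 in each direction. Rgs16 in myoblasts lies to the right at 1 and 3 h and to the left at 6 h, and Rgs2 in differentiated cells at 1 h lies farthest to the left.

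Rgs16, an R4 regulator of Gi and Gq signaling, was higher in stretched myoblasts at 1 h and 3 h and lower at 6 h. At 1 h the 4 non-stretched libraries had 10.8, 10.9, 12.2 and 11.9 CPM and the stretched ones 17.8, 17.1, 16.1 and 19.5 CPM (replicates 7 to 10). The groups did not overlap, and the ratio of their means was 1.54. The log2 fold change was 0.62 ± 0.06 (SE), with a 95% interval of 0.48 to 0.76 and an edgeR adjusted p of 2.2e-04. Within the experiments the difference was 0.68 for B27 and 0.56 for B31 on the log2 CPM scale. Leaving out the highest stretched library, replicate 10, gave 0.57, just under the fold limit, with an edgeR adjusted p of 0.0011. The summed muscle genes ran from 10.9 to 18.9 CPM without stretch and from 9.77 to 11.4 CPM with it in the same libraries, and their part in the Rgs16 difference was not tested.

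At 3 h Rgs16 had 10.6, 10.6, 11.1 and 10.5 CPM without stretch and 14.1, 17.1, 15.6 and 17.6 CPM with it. Again the groups lay apart, at a ratio of 1.51. The log2 fold change of 0.58 ± 0.07 fell short of the limit before rounding, at an edgeR adjusted p of 3.49e-05, and was past it by DESeq2, with another normalization, without the filter on low counts, or without any 1 of 3 libraries (non-stretched replicate 9, stretched replicates 7 and 9). By 6 h the order was turned, with 9.98, 10.8, 10.9 and 11.03 CPM in non-stretched and 7.39, 9.19, 7.67 and 9.94 CPM in stretched libraries. Every stretched library was under the lowest non-stretched one, by a small margin, and the log2 fold change was -0.30 ± 0.09 (edgeR adjusted p 0.0228), short of the fold limit. The adjusted p rose over 0.05 on leaving out any of 5 libraries, non-stretched replicates 8, 9 and 10 and stretched replicates 7 and 9 (-0.30 to -0.24, adjusted p from 0.055 to 0.064), and stayed under it without any of the other 3. Both experiments gave a difference of -0.33. Non-stretched levels hardly moved between the times, with means of 11.5, 10.7 and 10.7 CPM.

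The change of the Rgs16 response between 1 h and 6 h was tested as an interaction over the 24 myoblast libraries. It was -0.92 ± 0.11 on the log2 scale (95% interval -1.15 to -0.69, edgeR adjusted p 2.37e-06), and it kept an adjusted p under 0.05 when any 1 of the 24 libraries was left out. The difference between the 3 h and the 1 h response was -0.05 (95% interval -0.27 to 0.18, edgeR adjusted p 0.86). Of all genes, 21.1% had a 6 h response different from that at 1 h and 10.9% a different 3 h response.

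In differentiated cells at 1 h the non-stretched libraries had 6.01, 5.66, 6.05 and 5.81 CPM of Rgs16 and the stretched ones 10.3 (replicate 4), 7.12, 7.20 and 6.84 CPM. All stretched values were above the non-stretched ones, with the B17 library far above the rest. The log2 fold change was 0.42 ± 0.13 with an edgeR adjusted p of 0.25, and without that library it was 0.26 with an adjusted p of 0.14. The log2 fold changes at 3 h (0.16, adjusted p 0.19) and 6 h (-0.02, adjusted p 0.91) came from overlapping groups. The Rgs16 response in differentiated cells minus that in myoblasts was -0.21 at 1 h (95% interval -0.52 to 0.10), -0.42 at 3 h (-0.65 to -0.20) and 0.27 at 6 h (-0.02 to 0.57). None of these 3 passed the edgeR test (adjusted p 1.0, 0.052 and 0.31), in comparisons where 0%, 1.79% and 5.18% of all genes did. The 3 h value passed with DESeq2, without the low-count filter and with the experiment as a covariate. It also passed without stretched myoblast replicate 7 (-0.48, edgeR adjusted p 0.023) or non-stretched differentiated replicate 7 (-0.46, 0.046) or 8 (-0.48, 0.035). At 1 h, where edgeR called no gene, 705 of 16299 genes and 1 member had an unadjusted p under 0.05 and DESeq2 called 0 members.

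**Figure D4:**
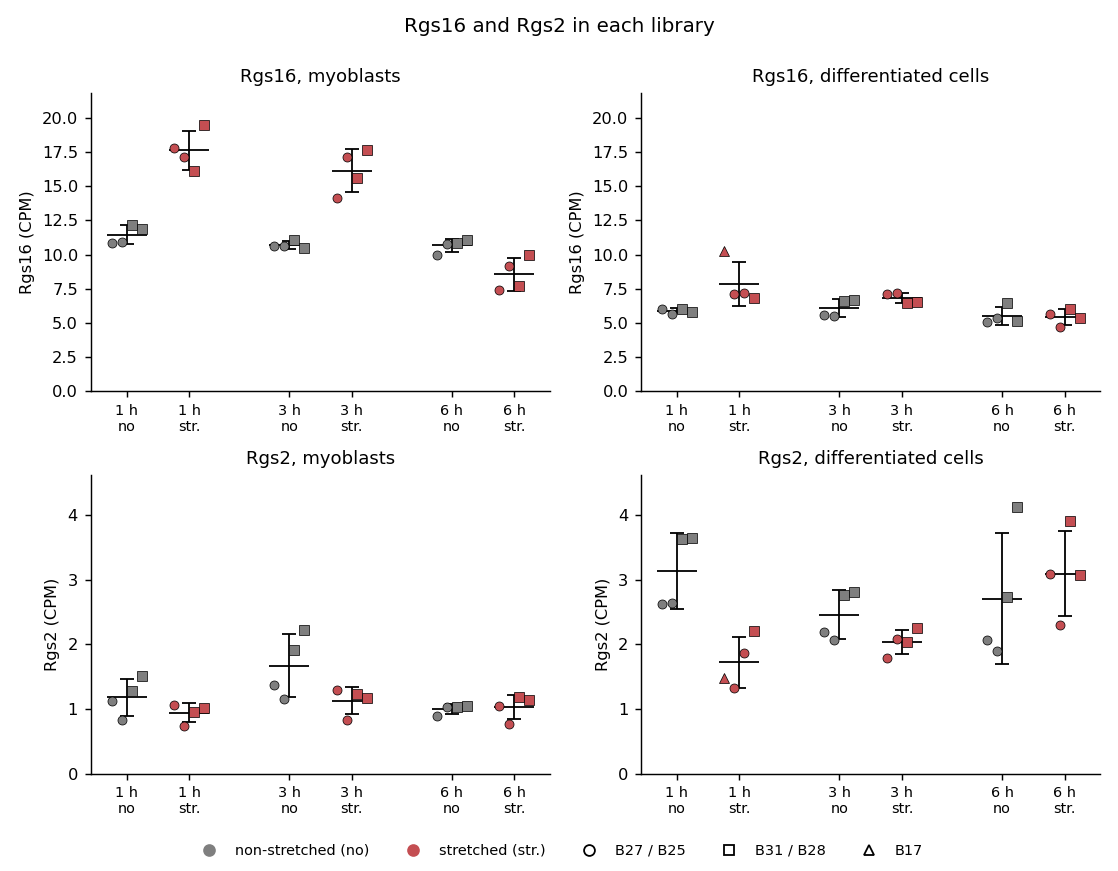
Rgs16 (top) and Rgs2 (bottom) in CPM for each library of myoblasts (left) and differentiated cells (right), non-stretched in grey and stretched in red, with group mean and SD and point shapes for the experiment codes. Stretched myoblasts have 16.1 to 19.5 CPM of Rgs16 at 1 h and 7.39 to 9.94 CPM at 6 h, and stretched differentiated cells have 1.33 to 2.21 CPM of Rgs2 at 1 h against 2.63 to 3.64 CPM without stretch.

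Rgs2, the R4 member known for restraining Gq signaling, had its widest difference in differentiated cells at 1 h. Non-stretched libraries had 2.63, 2.63, 3.63 and 3.64 CPM, and stretched libraries 1.48 (replicate 4), 1.33, 1.87 and 2.21 CPM, from 147 to 245 and from 72 to 135 counts. The groups did not overlap, and the stretched mean was 0.549 of the non-stretched one. The log2 fold change was -0.86 ± 0.19 (95% interval -1.27 to -0.45), and its edgeR adjusted p of 0.083 missed the threshold. The comparison had 0.27% of genes called. The same value was called by DESeq2 (adjusted p 0.0015), without the low-count filter (0.042), in a model of all 24 differentiated libraries (0.023), and with the experiment as a covariate, where the log2 fold change was -0.71 (0.019). It was also called without stretched replicate 9 (-1.002, edgeR adjusted p 0.040) and in none of the other 7 fits that left out 1 library (-0.93 to -0.75). Non-stretched Rgs2 differed by experiment, from 1.89 to 2.63 CPM in B25 and from 2.73 to 4.13 CPM in B28 over all times. Within B25 the stretch difference at 1 h was -0.74 on the log2 CPM scale, and within B28, with its 1 stretched library, -0.72.

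Later in differentiated cells the Rgs2 groups overlapped. At 3 h there were 2.20, 2.06, 2.76 and 2.82 CPM without stretch and 1.79, 2.08, 2.03 and 2.25 CPM with it (log2 fold change -0.28, edgeR adjusted p 0.15). At 6 h the values were 2.07, 1.89, 2.73 and 4.13 against 3.09, 2.30, 3.90 and 3.08 CPM (0.18, adjusted p 0.63). The response at 6 h minus that at 1 h was 1.04 ± 0.30 (95% interval 0.42 to 1.66, edgeR adjusted p 0.0244), where 11.9% of all genes differed between these times. That call was lost on leaving out any of 6 libraries, non-stretched replicates 9 and 10 and stretched replicate 7 of 1 h, and non-stretched replicates 7 and 8 and stretched replicate 9 of 6 h (0.90 to 0.96, adjusted p from 0.051 to 0.062). The 3 h response was not called different from that at 1 h (0.58, 95% interval -0.05 to 1.21, adjusted p 0.34), against 5.15% of all genes.

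Myoblasts held less Rgs2, from 42 to 123 counts per library. Their values at 3 h were 1.38, 1.16, 1.91 and 2.23 CPM without stretch and 1.29, 0.821, 1.23 and 1.17 CPM with it, and the groups overlapped. The log2 fold change was -0.57 ± 0.21 with an edgeR adjusted p of 0.051, next to both limits, and it was called in the model of all 24 myoblast libraries (-0.58, adjusted p 0.030) or without non-stretched replicate 7 (-0.65) or 8 (-0.72). It was smaller when stretched replicate 8 (-0.44, edgeR adjusted p 0.14) or non-stretched replicate 10 (-0.40, 0.19) was left out. Within the experiments the difference was -0.29 for B27 and -0.78 for B31 on the log2 CPM scale. At 1 h it was -0.33 (0.40) and at 6 h 0.08 (0.77), both from overlapping groups. The Rgs2 response was not called different between the stages at any time, with differences of -0.54 (95% interval -1.13 to 0.06), 0.29 (-0.25 to 0.83) and 0.10 (-0.57 to 0.77) at 1, 3 and 6 h.

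Rgs4, which acts on Gi and Gq, was low. In myoblasts at 1 h the counts were 21, 25, 25 and 25 without stretch and 11, 17, 17 and 13 with it, or 0.307, 0.395, 0.367 and 0.413 against 0.225, 0.297, 0.254 and 0.211 CPM. Each stretched library was under each non-stretched one, and the log2 fold change was -0.58 ± 0.22 (95% interval -1.06 to -0.10) at an edgeR adjusted p of 0.17. At 3 h and 6 h it was 0.24 and 0.32 with adjusted p of 0.51 and 0.47. The 6 h response minus the 1 h response was 0.90 (95% interval 0.16 to 1.64, edgeR adjusted p 0.079), which passed the threshold on leaving out non-stretched replicate 9 (1.18, adjusted p 0.019) or stretched replicate 8 (1.02, adjusted p 0.046) of 6 h. It fell to 0.72 without non-stretched replicate 8 of 6 h, and the highest adjusted p was 0.16, without stretched replicate 7 of 6 h.

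Rgs3, a longer R4 member, was much higher in counts, from 1142 to 3156 per library, and its stretch differences were small. In myoblasts at 6 h it had 27.6, 25.9, 27.3 and 27.4 CPM without stretch and 30.9, 31.5, 32.7 and 28.9 CPM with it. The groups lay apart, and the log2 fold change was 0.22 ± 0.04 (edgeR adjusted p 0.0032), under the fold limit. At 1 h and 3 h the values were -0.08 (adjusted p 0.44) and -0.10 (0.045), both from overlapping groups. The 3 h value passed the adjusted p in 2 of the 8 fits that left out 1 library (without non-stretched or stretched replicate 8). The 6 h response minus the 1 h response was 0.29 ± 0.06 (edgeR adjusted p 0.0013), past the threshold without any 1 of the 24 libraries too. Of all genes, 21.1% passed this test. In differentiated cells the log2 fold changes were -0.13, -0.04 and 0.12 at 1, 3 and 6 h, with adjusted p from 0.17 to 0.62 and overlapping groups.

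Rgs19, an RZ member that acts on Gi, differed by little but without overlap at 3 h and 6 h in both stages. Myoblasts at 3 h had 29.2, 26.96, 26.3 and 24.9 CPM without stretch and 22.4, 24.8, 22.8 and 24.4 CPM with it (log2 fold change -0.20 ± 0.05, edgeR adjusted p 0.0073). The differentiated libraries of 3 h had 11.6, 10.9, 11.2 and 11.3 against 10.05, 9.85, 9.82 and 9.84 CPM with stretch (-0.19 ± 0.04, adjusted p 0.013). At 6 h stretched myoblasts had 29.1, 29.3, 30.7 and 29.6 CPM against 28.1, 27.2, 27.7 and 27.5 CPM (0.12 ± 0.03, adjusted p 0.015). Differentiated cells at 6 h had 10.3, 11.2, 12.7 and 11.5 CPM without stretch and 13.1, 13.4, 13.3 and 13.6 CPM with it (0.22 ± 0.06, adjusted p 0.030). That adjusted p stayed under 0.05 only without non-stretched replicate 9 (0.27) and lay between 0.053 and 0.078 in the other 7 fits that left out 1 library, while the myoblast values at both times and the differentiated value at 3 h kept it in all 8. Stretched libraries were thus all lower at 3 h and all higher at 6 h, in a background where 22.2% to 31.9% of all genes passed the adjusted p. The stages' responses differed by 0.00 at 3 h (95% interval -0.14 to 0.15) and by 0.09 at 6 h (-0.05 to 0.23). At 1 h the log2 fold changes were 0.04 in myoblasts and 0.01 in differentiated cells. The 3 h response minus the 1 h response in myoblasts was -0.24 ± 0.06 (edgeR adjusted p 0.012), a call that held without any 1 library, and for differentiated cells it was -0.20 (0.24). These tests called 10.9% of all genes in myoblasts and 5.15% in differentiated cells.

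**Figure D5:**
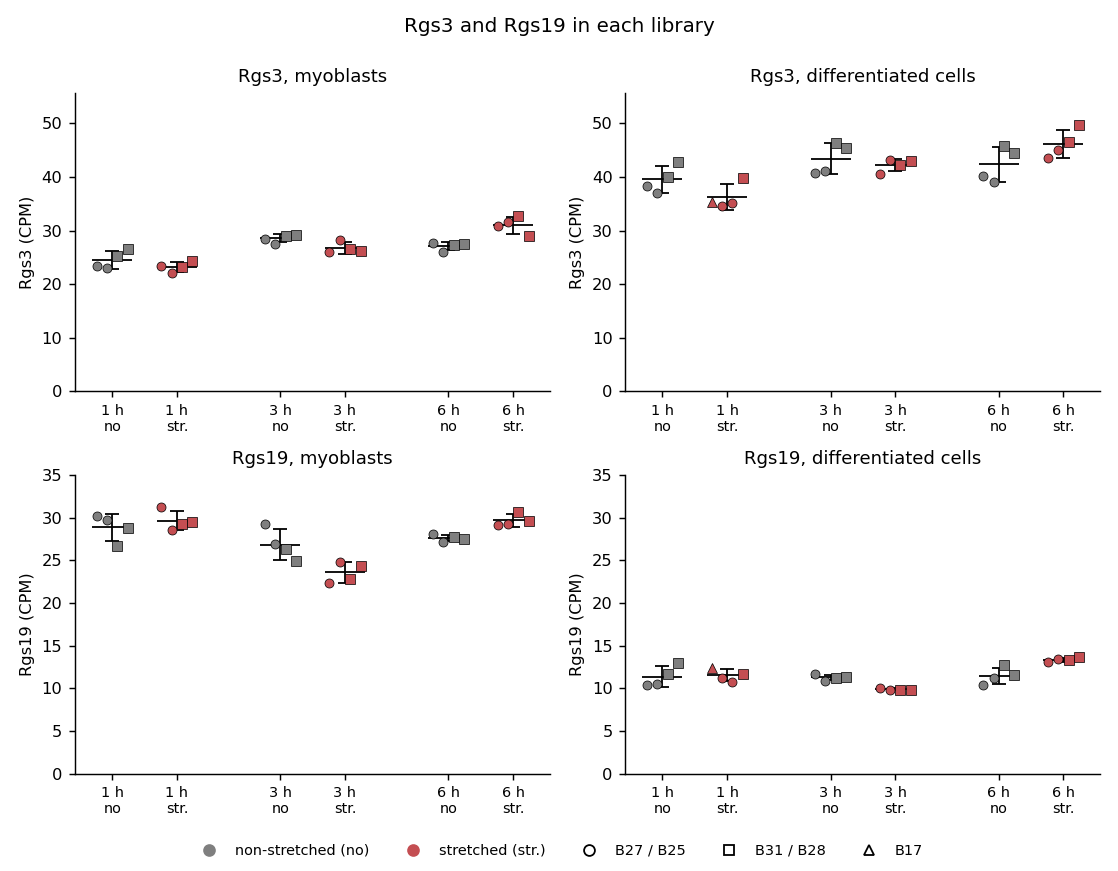
Rgs3 (top) and Rgs19 (bottom) in CPM for each library, arranged by stage, time and stretch, with the group mean and SD and point shapes for the experiment codes. Stretched libraries are all below the non-stretched ones for Rgs19 at 3 h and all above at 6 h, in both stages, while the Rgs3 groups part in myoblasts at 6 h.

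Rgs12, the scaffold of the R12 subfamily, was the member with the most counts, from 2626 to 6843 per library, and its 95% intervals were narrow. Its stretch differences in myoblasts were 0.08 at 1 h (95% interval 0.00 to 0.17), -0.03 at 3 h (-0.09 to 0.03) and -0.06 at 6 h (-0.12 to 0.00), none past the edgeR adjusted p (0.28, 0.53 and 0.14). At 6 h the stretched libraries, 81.0, 83.7, 85.6 and 84.4 CPM, were all under the non-stretched 88.5, 86.0, 88.1 and 90.8 CPM. The 6 h response minus the 1 h response was -0.15 ± 0.04 (edgeR adjusted p 0.023), and this call was lost without any of 5 libraries, non-stretched replicate 9 and stretched replicates 9 and 10 of 1 h, and non-stretched replicate 10 and stretched replicate 7 of 6 h (-0.14 to -0.11, adjusted p from 0.051 to 0.070). The same interaction was called for 21.1% of all genes in myoblasts. In differentiated cells the stretch differences of Rgs12 were 0.11, -0.01 and -0.10 at 1, 3 and 6 h, with adjusted p from 0.099 to 0.92.

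Rgs10, the small R12 member, passed no stretch test. In myoblasts its groups overlapped at each time, with log2 fold changes of 0.00 (95% interval -0.18 to 0.19), -0.03 (-0.19 to 0.14) and -0.15 (-0.34 to 0.03). At 6 h the difference was 0.01 within B27 and -0.35 within B31. In differentiated cells it was 0.19 (95% interval -0.09 to 0.48), 0.00 (-0.24 to 0.25) and 0.16 (-0.10 to 0.42) from 83 to 154 counts per library. Rgs17, the RZ member related to Rgs19, had in myoblasts at 1 h 0.555, 0.585, 0.588 and 0.595 CPM without stretch and 0.655, 0.770, 0.627 and 0.664 CPM with it. The stretched libraries were all higher there, at a log2 fold change of 0.22 (95% interval -0.11 to 0.55, edgeR adjusted p 0.49), and at 3 h and 6 h it was -0.23 and -0.27 from overlapping groups.

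Of the other 12 RGS genes of the family, 2 or 3 per comparison had enough counts (Rgs11, Rgs20 and, in 4 of the 6, Rgs14), and 0 were called for stretch by edgeR or by DESeq2. At an unadjusted p under 0.05 there were 0 to 2 per comparison. Over all genes tested, from 1386 of 15538 (differentiated cells, 1 h) to 6140 of 14813 (myoblasts, 3 h) had such a p. Rgs20, a further RZ gene, was the only one well expressed, at 22.7 CPM in non-stretched myoblasts and 4.47 CPM in non-stretched differentiated cells (log2 fold change between stages -2.37). Its stretch differences in myoblasts passed the edgeR adjusted p at 1 h (0.16, adjusted p 0.015) and at 6 h (-0.31, adjusted p 0.0010), under the fold limit. Its 6 h response minus its 1 h response was -0.47 ± 0.07 (edgeR adjusted p 1.69e-05), in a test that called 21.1% of all genes. Rgs14 was higher in differentiated cells (log2 fold change 2.89). With 5 to 14 counts per myoblast library, it passed the filter on low counts mainly through the differentiated libraries. Rgs1, Rgs6, Rgs8, Rgs13, Rgs18, Rgs21 and Rgs22 had at most 8 counts in any library.

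Genes of G protein alpha subunits were expressed in both stages. At the top were Gnai2 (175 CPM per kb in non-stretched myoblasts and 134 in differentiated cells) and Gnas (98.5 and 134), which couple to inhibition and stimulation of adenylyl cyclase. Of 16 alpha genes, 13 were tested in each comparison and 0 were called for stretch by edgeR or by DESeq2. At an unadjusted p under 0.05 there were 0 to 6 per comparison. Over all genes tested, from 1386 of 15538 (differentiated cells, 1 h) to 6140 of 14813 (myoblasts, 3 h) had such a p. By edgeR adjusted p alone, 0, 5 and 3 of 13 passed in myoblasts and 0, 2 and 3 in differentiated cells at 1, 3 and 6 h. The shares of all genes were 5.92%, 31.9% and 27.2%, and 0.663%, 22.2% and 22.3%. Among 17 beta and gamma genes, Gnb1 and Gnb2 were the highest per kilobase, and 1 was called, Gng4. It was higher in stretched myoblasts at 6 h (log2 fold change 1.25 ± 0.29, edgeR adjusted p 0.0091). There 14 of the list were tested, against 13 at 1 h and 3 h, and 2.17% of all genes were called. Gng4 had only 3 to 20 counts per myoblast library (median 7). It may have passed the filter on low counts only through stretched libraries where it was high, so little rests on this call. Of 16 effectors, 12 were tested and 1 was called, Adcy8, an adenylyl cyclase stimulated by calcium. It was higher in differentiated cells at 3 h (0.91 ± 0.18, edgeR adjusted p 0.0048), where 1.63% of all genes were called. Of 12 further regulators (G protein-coupled receptor kinases, arrestins, Ric8 and Gpsm genes), 11 were tested and 0 were called by either tool. At an unadjusted p under 0.05 there were 0 to 5 per comparison, next to the same shares of all genes. At the same 2 limits the members had 1 call in 6 comparisons, and each of these lists had 0 or 1. The lists differed in the number of genes tested, and 0.27% to 2.17% of all genes were called per comparison. These counts are therefore not ranked against each other.

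Across the 24 myoblast libraries, the genes whose log2 CPM was most like that of Rgs16, of 15683 compared, were Smndc1 (Pearson r 0.95), a splicing factor gene, Gdnf (0.93), which encodes a neurotrophic factor, and Fst (0.92), which encodes follistatin, an inhibitor of myostatin and activins. These libraries share experiments and times, and r is given as a description. The log2 fold changes of Gdnf at 1, 3 and 6 h of stretch were 0.44, 0.32 and -0.38, those of Fst 0.44, 0.34 and -0.21, and those of Smndc1 0.12, 0.18 and -0.06.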

How the data were processed

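RNA was isolated right after stretching and sequenced as stranded mRNA libraries. The labels list the molecule as nuclear RNA, while the study's methods describe extraction from cells with a column kit. Per the labels and methods, the authors used STAR for alignment of read pairs to mm10 and Salmon for transcript quantification, and deposited whole-number counts per gene symbol, not normalized. The 2 stages were deposited as separate tables, joined here by symbol. Salmon shares reads among similar transcripts, so counts of genes with shared sequence are estimates. Columns without a sample in the labels numbered 0.

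Counts were tested with edgeR 4.0.16 (R 4.3.3; filterByExpr, TMM normalization, quasi-likelihood F-test, two-sided, Benjamini-Hochberg over all genes tested). Stretch was compared within each stage and time, 4 against 4 libraries. A gene was called at an adjusted p under 0.05 and an absolute log2 fold change of at least 0.58, the 2 limits of the study. Interactions (24 libraries of a stage, or 16 of both stages at 1 time) were called at an adjusted p under 0.05, and the non-stretched stages were compared with time as a factor. Errors of log2 fold changes are standard errors from the F statistic, with 95% intervals from its degrees of freedom. CPM was scaled by TMM factors over all 48 libraries (pseudocount 0.5 on the log2 scale for similarity and within-experiment differences). Intervals and limits for a count of 0 cover counting error only where they come from counts alone. The tests were checked on simulated data.

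Alternatives were DESeq2 1.42.0, RLE normalization, no filter on low counts, the replicate number as a block, the experiment as a covariate, no fold limit, pooled models, single time points and each library left out. All 9 members are named in every comparison. From the lists of other RGS genes, G protein subunits, effectors, other regulators and markers, genes called for stretch (up to 4 by fold per list and comparison) and the 2 highest per kilobase and stage could be named, and for each member called, the 3 genes with the highest Pearson r. The members and lists were chosen with earlier results of these data known. Libraries of a group differed by more than sampling noise (lowest chi-square per degree of freedom 2.74). Promoter windows, without the bases after the start site, came from RefSeq GRCm38.p6, and all 9 members had one.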

Additional observations from a re-analysis of the deposited data

Results flagged for a closer look

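Of 84 groups of 4 libraries examined for a library apart from the others by Dixon's test, 4 had one, and chance alone gives about 1 in 20. Rgs16 was at 10.3 CPM in replicate 4 of the 1 h stretched differentiated cells, the only library of B17, while the other 3 were between 6.84 and 7.20 CPM. Rgs3 was at 39.8 CPM in replicate 9 of the same group, the only one of B28, against 34.6 to 35.3 CPM. Rgs10 was at 5.49 CPM in replicate 7 of the 1 h stretched myoblasts against 4.79 CPM in each of the others. Rgs19 was at 10.05 CPM in replicate 7 of the 3 h stretched differentiated cells against 9.82 to 9.85 CPM.

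For 5 responses to stretch, the effect at a later time differed from that at 1 h by the edgeR interaction test. In myoblasts these were Rgs19 at 3 h (-0.24 on the log2 scale, adjusted p 0.012), Rgs3 at 6 h (0.29, adjusted p 0.0013), Rgs12 at 6 h (-0.15, adjusted p 0.023) and Rgs16 at 6 h (-0.92, adjusted p 2.37e-06). In differentiated cells it was Rgs2 at 6 h (1.04, adjusted p 0.024). The same test called 10.9% of all genes in myoblasts at 3 h, 21.1% in myoblasts at 6 h and 11.9% in differentiated cells at 6 h.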

How the results depend on the processing

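The number of members called for stretch depended on where 2 genes fell against the limits. For most of the other settings in this section, the share of all genes called is not given. A changed count is therefore not read as particular to the members. In myoblasts at 3 h it was 0 and became 1 with DESeq2, with RLE normalization, without the low-count filter (Rgs16 in each) and in the model of all 24 libraries of the stage (Rgs2), and 3 without the limit on the fold change. Without that limit it rose from 0 to 3 in myoblasts at 6 h and from 0 to 1 at both 3 h and 6 h in differentiated cells. In these comparisons and in myoblasts at 3 h, 22.2% to 31.9% of all genes passed without the limit. In differentiated cells at 1 h it went from 0 to 1 (Rgs2) with DESeq2, without the low-count filter, with the experiment as a covariate and in the model of all 24 libraries. The number of members whose 6 h response differed from that at 1 h in differentiated cells was 1, where 11.9% of all genes differed. It was 2 with DESeq2 (with Rgs3) and 4 with an experiment covariate (with Rgs3, Rgs12 and Rgs19). For the response in differentiated cells against myoblasts at 3 h it was 0, and 1 (Rgs16) with DESeq2, without the low-count filter and with the experiment as a covariate. When each library was left out in turn, the counts ran from 0 to 1 for myoblasts at 1 h, myoblasts at 3 h, differentiated cells at 1 h and the stage difference at 3 h, from 2 to 4 for 6 h against 1 h in myoblasts and from 0 to 3 for the same in differentiated cells (Rgs3 and Rgs16 were added without stretched 1 h replicate 9), and stayed as reported in the other 8 comparisons. Values of single members were counted under these settings for all stretch comparisons. Interactions and non-stretched stage differences were counted only where called in the main fit, the latter without the fits that left out a library. Of these values, 803 stayed on their side of the threshold, 22 passed it newly, 14 fell short of it and 0 reversed. Interactions that only another setting called, such as Rgs16 between the stages at 3 h, are not among them. Beyond the constructions named (fewer libraries, fewer or more genes, no fold limit) the cause was not tested. Counts too low for a stretch test limit Rgs5 everywhere and Rgs4 and Rgs17 in differentiated cells.

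Same-numbered libraries of a stage share an experiment code, but each of these codes covers several replicate numbers, and the labels pair the libraries no further. The deviations of 23 pairs of same-numbered libraries from their group means had correlations from -0.0734 to 0.146, with 6 over 0.1, and 8 of the 23 stretched libraries correlated best with the non-stretched library of their own number. In a fit with a replicate block, the 6 h against 1 h count in differentiated cells went from 1 to 3 (with Rgs3 and Rgs12), and the block changed no other count of members called.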
